A study of Mus musculus with 20 samples.

Results

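The Kruppel-like factors examined here were the 9 Klf genes Klf2, Klf3, Klf4, Klf6, Klf7, Klf9, Klf10, Klf13 and Klf15, taken by gene symbol from a raw read count table of 48795 genes, in which each symbol had 1 row. All 9 passed the filter on low counts and were among the 17313 genes tested. The members were grouped by their known roles into steroid-induced (Klf9, Klf15), vascular (Klf2, Klf4), rapid-response (Klf6, Klf10) and other members (Klf3, Klf7, Klf13).

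Bulk mRNA was sequenced from the brain of CD-1 mice, described as sensory-motor cortex in the study's methods, in 20 libraries of 4 groups with 5 libraries each. Dams received a single injection on gestation day 9, which was lipopolysaccharide at 0.008 mg/kg for the offspring with a maternal inflammatory response (MIR mice) and saline for control offspring. Offspring then received the mTOR inhibitor rapamycin or its vehicle, and brains were taken 2 hours later. The groups are called control vehicle, control rapamycin, MIR vehicle and MIR rapamycin, and the comparisons ask how MIR and short rapamycin exposure changed transcript levels. The mice were offspring whose exact age, sex and litter are not given in the labels, so littermates among the libraries cannot be recognised, and the p-values measure the spread between these libraries.

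Kruppel-like factors are zinc finger transcription factors that bind GC-rich and CACCC sequences and act as activators or repressors depending on the member. Klf9 and Klf15 are known targets of the glucocorticoid receptor, Klf2 and Klf4 are induced by blood flow in endothelial cells, where they hold the vessel wall in a quiescent state, and Klf6 and Klf10 are early response genes that follow injury and growth factor signals. In the brain, Klf9 is abundant in mature neurons, and Klf7 is known for its part in axon growth.

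Libraries held between 17846282 and 24460104 counted reads. Control vehicle 1, 2 and 3 stood apart by their marker genes. Slc17a7, the vesicular glutamate transporter of cortical excitatory neurons, was at 12.3 CPM (counts scaled to a common library total) in control vehicle 1, at 656 CPM in control vehicle 2 and at 1154 CPM or higher in the other 18 libraries. Drd1, a dopamine receptor of striatal neurons, was at 176 CPM in control vehicle 1, Cbln3, a granule cell gene of the cerebellum, was at 841 CPM in control vehicle 2, and Ttr, a gene of the choroid plexus, was at 1141 CPM in control vehicle 3. In the remaining libraries the highest values of Drd1, Cbln3 and Ttr were 18.5, 1.18 and 12.8 CPM. The Drd1 value was that of control rapamycin 4 and the Ttr value that of control vehicle 5. Ttr was also at 7.92 CPM in control vehicle 4, against at most 1.12 CPM in control rapamycin and 6.42 CPM in MIR rapamycin 2. Control vehicle 4 and 5 were therefore not free of this choroid plexus gene. The control vehicle group therefore held libraries whose markers went against a purely cortical sample. Many values from comparisons that use the group are also given without these 3 libraries, which left 2 control vehicle libraries. The marker lists, the steroid receptor genes, the Klf15 targets and the Sp genes are given with all control vehicle libraries only. Control rapamycin 1 differed from the other 4 libraries of its group with a chi-square per degree of freedom of 73.3 to 82.5, against 11.5 to 26.3 among those 4.

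The members differed widely in level. To compare levels between genes, CPM was divided by the exon length of each gene in GENCODE M21, in kilobases. In control vehicle, the mean levels per kilobase ran from 42.6 for Klf9 and 26.5 for Klf13 over 13.9 for Klf6, 9.52 for Klf7, 8.70 for Klf15 and 5.86 for Klf10 to 4.09 for Klf2, 2.88 for Klf3 and 2.45 for Klf4. The 5 libraries of Klf9 lay above all of Klf13, and those of Klf13 above all of Klf6, whereas each later pair of neighbours in this order overlapped. Klf9 and Klf13 also led without overlap in the other 3 groups. In MIR vehicle the order below Klf6 differed, with Klf10 next at 12.5 CPM per kilobase, above all 5 Klf7 libraries, and Klf2 at 8.26, above Klf15 at 7.39, with overlap between Klf2 and Klf15. The other Klf genes measured were Klf5, Klf8, Klf11, Klf12, Klf14 and Klf16, while Klf1 and Klf17 did not pass the filter.

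The sequences before the gene starts are shown for the members whose values the results turn on, Klf2 and Klf4 in full from the RefSeq window and Klf9, Klf13 and Klf15 over the last 100 bases, read from build GRCm38.p6 (mm10) on the strand of the gene. Capitals mark TGACG, the core of a cAMP response element, on either strand (CGTCA on the other strand), and, in Klf2 alone, a match to the MEF2 site. The 250 bases of Klf2 lie at chr8:72318812-72319061 on the plus strand, those of Klf4 at chr4:55532476-55532725 on the minus strand, and the 100 bases of Klf9, Klf13 and Klf15 at chr19:23141126-23141225 (plus), chr7:63938916-63939015 (minus) and chr6:90462476-90462575 (plus).
Klf2: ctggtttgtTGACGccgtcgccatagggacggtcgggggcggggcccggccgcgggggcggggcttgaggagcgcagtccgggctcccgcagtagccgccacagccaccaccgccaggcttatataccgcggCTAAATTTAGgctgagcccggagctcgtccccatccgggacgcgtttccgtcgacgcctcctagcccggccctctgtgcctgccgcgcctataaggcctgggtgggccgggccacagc
Klf4: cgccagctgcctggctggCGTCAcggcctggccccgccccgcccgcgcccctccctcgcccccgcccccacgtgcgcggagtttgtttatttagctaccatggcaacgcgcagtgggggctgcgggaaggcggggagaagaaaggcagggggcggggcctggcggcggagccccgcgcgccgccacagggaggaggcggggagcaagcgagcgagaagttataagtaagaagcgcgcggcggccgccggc
Klf9: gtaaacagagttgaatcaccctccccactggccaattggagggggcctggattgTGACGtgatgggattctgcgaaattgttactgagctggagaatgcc
Klf13: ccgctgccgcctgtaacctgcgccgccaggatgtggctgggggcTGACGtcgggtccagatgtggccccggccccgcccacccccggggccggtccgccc
Klf15: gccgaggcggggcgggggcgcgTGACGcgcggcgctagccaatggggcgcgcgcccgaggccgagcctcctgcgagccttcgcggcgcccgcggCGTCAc

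RefSeq windows of 300 bases, from 250 before to 50 after the start, were matched for 8 of the 9 members. Their GC content lay between 58.3 and 76.7%, against a median of 52.7% over all 32851 windows. TGACG on either strand was found in 6 of 8 members, at 46 bases before the start in Klf9, 56 in Klf13 and 78 in Klf15, and in 20.8% of all windows. The GC box GGGCGG on either strand was found in 7 of 8 members and in 35.7% of all windows, and the CACCC box CCACCC in 4 of 8 members and in 31.5%. The glucocorticoid response element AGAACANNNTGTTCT and its shorter site AGAACA were found in 0 of 8 windows, including those of Klf9 and Klf15, and in 0.00913 and 19.0% of all windows. The longer element TGACGTCA was also absent from the 8 windows and found in 1.79% of all. The MEF2 site, through which MEF2 factors are known to act on Klf2, was found in Klf2 only, 118 bases before the start, and in 3.19% of all windows. The SRF CArG box was in 0 of 8 and in 1.63%. These matches describe letters in a short window, not occupied sites.

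Klf9, a zinc finger factor induced by glucocorticoids and thyroid hormone, was the member called higher in control offspring given rapamycin. Klf9 (ENSMUSG00000033863, chr19:23141226-23168134, plus strand) was at 195, 186, 205, 217 and 223 CPM in control vehicle 1 to 5 and at 237, 314, 360, 284 and 285 CPM in control rapamycin 1 to 5. All 5 rapamycin libraries lay above all 5 vehicle libraries, with control rapamycin 1 nearest to them. The mean rose from 205 ± 15.1 to 296 ± 45.0 CPM (SD, n = 5), a log2 fold change of 0.53 ± 0.092 (SE) or 1.44-fold, with an adjusted p of 0.00603. A gene was called when its adjusted p was under 0.05 and its absolute log2 fold change over 0.5. In bulk tissue, fewer cells of a type and less RNA per cell cannot be told apart, here or in any result that follows.

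Klf9 was the 1 of 9 members called in control offspring given rapamycin, where 5.23% of all genes tested were called and 1.52% rose. Klf13 had an adjusted p of 0.0101 there at a log2 fold change of 0.44, so only the fold threshold kept it from a call. The call of Klf9 lay close to that threshold. Without control rapamycin 3 the log2 fold change was 0.45 with an adjusted p of 0.0177, and without control vehicle 2 it was 0.49 with an adjusted p of 0.0104, so the fold fell under 0.5 in each case. Without control rapamycin 1 it was 0.60 for Klf9 with an adjusted p of 0.00223. The value was 0.43 without control vehicle 1, 2 and 3 with an adjusted p of 0.129, and when control rapamycin 1, the shallowest of its group, was left out too, it was 0.50, just under the threshold, with an adjusted p of 0.0282. Fitted on the control groups alone, Klf9 had the same fold of 0.52 and an adjusted p of 0.113.

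In MIR mice, the difference of Klf9 with rapamycin was not called. It was at 228, 230, 227, 198 and 242 CPM in MIR vehicle 1 to 5 and at 240, 271, 246, 270 and 249 CPM in MIR rapamycin 1 to 5. The groups overlapped through MIR vehicle 5 and MIR rapamycin 1. The log2 fold change was 0.18 ± 0.092 with an adjusted p of 1.00. The interaction, which compares the rapamycin response of MIR mice with that of controls, was -0.35 ± 0.13 for Klf9, with an unadjusted p of 0.0148 and an adjusted p of 0.336, so the responses were not shown to differ. Averaged over MIR and control, the rapamycin effect on Klf9 was 0.35 ± 0.065 with an adjusted p of 0.00549, under the fold threshold. This average was 0.30 without control vehicle 1, 2 and 3, with an adjusted p of 0.0445.

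Klf15, which drives amino acid catabolism in liver and muscle and answers to glucocorticoids, was at 28.8, 21.8, 22.7, 20.7 and 27.4 CPM in control vehicle 1 to 5 and at 26.4, 22.4, 36.5, 42.2 and 38.5 CPM in control rapamycin 1 to 5. Control rapamycin 3, 4 and 5 lay above every vehicle library, while control rapamycin 1 and 2 lay within their range. This was a log2 fold change of 0.45 ± 0.15 with an adjusted p of 0.0589, so Klf15 (ENSMUSG00000030087, chr6:90462576-90475238, plus strand) was not called. It passed both thresholds when control rapamycin 1, control rapamycin 2 or control vehicle 1 was left out, with log2 fold changes of 0.52, 0.57 and 0.52 and adjusted p values of 0.0492, 0.0220 and 0.0434. Without control vehicle 1, 2 and 3, the Klf15 value was 0.46 with an adjusted p of 0.302.

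Klf15 was not called with rapamycin in MIR mice. Its values were 20.4, 16.2, 22.3, 21.7 and 22.6 CPM in MIR vehicle 1 to 5 and 22.7, 20.3, 22.1, 20.8 and 21.5 CPM in MIR rapamycin 1 to 5, which overlapped over nearly their whole range. Their log2 fold change was 0.058, with a 95% interval from -0.25 to 0.36. Under rapamycin, Klf15 was lower in MIR mice than in controls by a log2 fold change of -0.63 ± 0.15, with an unadjusted p of 0.000351 and an adjusted p of 0.128. All MIR rapamycin libraries but MIR rapamycin 1 lay below all control rapamycin libraries. The same Klf15 value was called by DESeq2 (adjusted p of 0.0145), by the edgeR likelihood ratio test (0.0224) and by voom (0.0169). This comparison does not use the control vehicle libraries except through the shared spread, and without control vehicle 1, 2 and 3 the value was -0.62 with an adjusted p of 0.0629. The interaction for Klf15 was -0.39 ± 0.21 with an adjusted p of 0.428.

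Klf13, the close relative of Klf9 that also binds GC-rich sites, was, like Klf9, higher in every control rapamycin library than in any control vehicle library. It was at 173, 183, 213, 216 and 213 CPM in control vehicle 1 to 5 and at 250, 227, 287, 307 and 281 CPM in control rapamycin 1 to 5. Control rapamycin 2 came nearest to control vehicle, in which control vehicle 1 and 2 were lowest. The log2 fold change was 0.44 ± 0.088 with an adjusted p of 0.0101, under the fold threshold of 0.5. Klf9 and Klf13 were the 2 of 9 members whose rapamycin libraries all lay above all control vehicle libraries, where 3.73% of all genes did so. The value of Klf13 was 0.33 without control vehicle 1, 2 and 3, with an adjusted p of 0.175. In MIR mice, Klf13 (ENSMUSG00000052040, chr7:63886351-63938915, minus strand) was at 235, 200, 204, 222 and 217 CPM with vehicle and at 227, 261, 234, 227 and 233 CPM with rapamycin, in the order of the library numbers. Those groups overlapped, with a log2 fold change of 0.13 ± 0.088 and an adjusted p of 1.00. Averaged over MIR and control, Klf13 differed by 0.29 with an adjusted p of 0.0172. E030018B13Rik and Gm27252 overlap Klf13 on the other strand, and use of strand in counting is not stated.

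**Figure D1:**
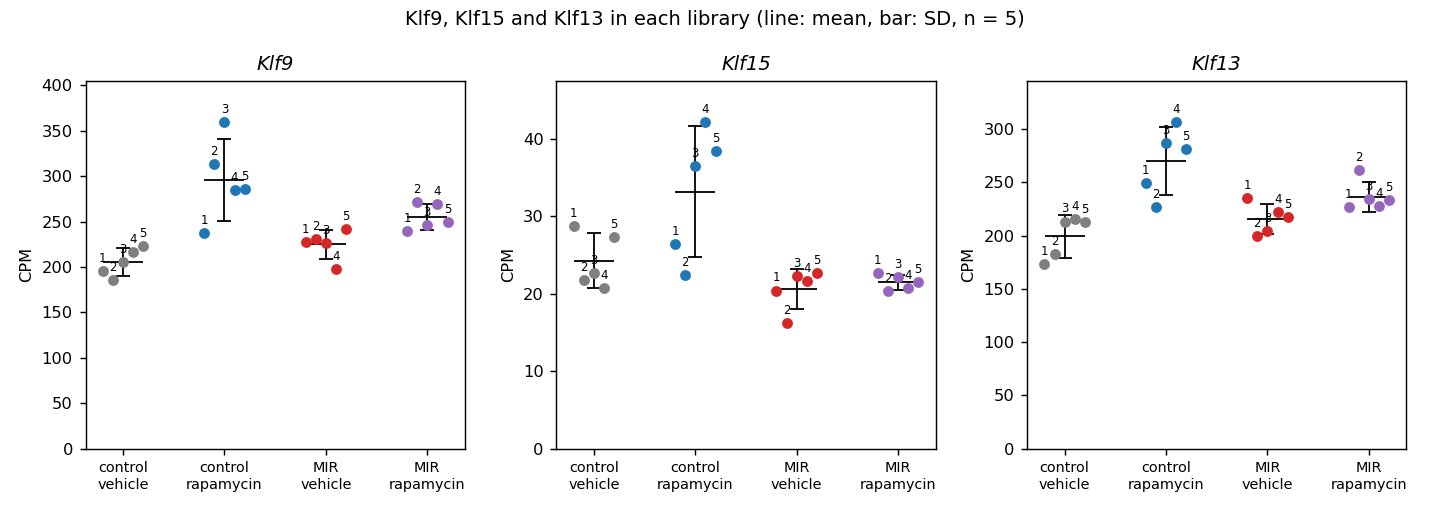
CPM (vertical axes, from 0) of Klf9, Klf15 and Klf13 in each library of the 4 groups, where numbers are library numbers, lines are means and bars are SD (n = 5). All 5 control rapamycin libraries lie above all 5 control vehicle libraries for Klf9 and Klf13, and for Klf15 3 of 5 do.

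Targets of glucocorticoids were read beside the steroid-induced members, as a list of 16 genes, all tested. This list, like the other gene lists below, was chosen with earlier results of these data known. Its counts beside the shares of all genes are therefore descriptions, not tests. In control offspring given rapamycin, 6 of 16 rose, against 1.52% of all genes, and 0 fell, with a median log2 fold change of 0.44 over the list and -0.035 over all genes tested. Fkbp5, a co-chaperone that restrains the glucocorticoid receptor, rose from 36.7 ± 14.0 to 103 ± 33.8 CPM (SD, n = 5), a log2 fold change of 1.49 with an adjusted p of 0.00477. Map3k6, a stress kinase, rose by 1.85 from 2.45 ± 0.581 to 8.86 ± 2.45 CPM. The others that rose were the metallothioneins Mt1 (0.68) and Mt2 (0.79), the sulfotransferase Sult1a1 (1.17) and the lipid droplet coat gene Plin4 (1.47). When control vehicle 1, 2 and 3 were left out, 2 of 16 were called higher, Fkbp5 (1.51) and Map3k6 (1.75), against 0.0723% of all genes. Fitted on the control groups alone, 1 of 16, Map3k6 (1.85), was called, against 0.0362% of all genes. In MIR mice 0 of 16 were called with rapamycin at a median of 0.11, 6 of 16 were higher at an unadjusted p under 0.05, against 2.21% of all genes, and Fkbp5 had a log2 fold change of 1.28 with an adjusted p of 0.0793. The interaction of Fkbp5 was -0.20 with an adjusted p of 0.819. Between MIR and control mice given rapamycin, where Klf15 was lower in MIR mice, 0 of 16 were called. There, 7 of 16 were lower and 0 higher at an unadjusted p under 0.05, with a median of -0.34. Of all genes, 4.33% were lower at that p.

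Nr3c1, the glucocorticoid receptor, was at 164 ± 26.6 CPM with vehicle and 145 ± 29.8 CPM with rapamycin in controls (SD, n = 5), with a log2 fold change of -0.18 and an adjusted p of 0.418. Nr3c2, the mineralocorticoid receptor, was at 56.0 ± 5.04 and 41.8 ± 3.60 CPM, with a log2 fold change of -0.42 and an adjusted p of 0.0513. Of the 7 steroid receptor and steroid enzyme genes listed, 6 were tested and 0 were called in any comparison. The 3 listed targets of Klf15, Bcat2, Prodh and Gpt, which act in amino acid breakdown, gave 0 calls in any comparison. Prodh, proline dehydrogenase, had a log2 fold change of 0.29 with an adjusted p of 0.0772 in control offspring given rapamycin. In that comparison, 2 of 7 oligodendrocyte markers were called lower, with a median of -0.75. Of 7 astrocyte markers 2 were called lower and 1 higher, with a median of -0.39. Of all genes, 3.71% fell and 1.52% rose. The 7 cortex markers had a median of 0.59 and 0 calls. The oligodendrocyte markers summed to 2509 to 9947 CPM in control vehicle and 2906 to 4142 CPM in control rapamycin. The part of these lists in the member values was not tested.

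Klf2 and Klf4, the flow-induced factors of the endothelium, were higher in MIR vehicle than in control vehicle on average, but neither was called. Klf2 (ENSMUSG00000055148, chr8:72319033-72321656, plus strand) was at 6.27, 5.02, 6.48, 9.15 and 10.9 CPM in control vehicle 1 to 5 and at 20.5, 9.80, 16.1, 10.1 and 19.8 CPM in MIR vehicle 1 to 5. MIR vehicle 1, 3 and 5 lay above every control vehicle library, while MIR vehicle 2 and 4 lay below control vehicle 5. The log2 fold change was 1.01 ± 0.26, 2.02-fold, with an adjusted p of 0.0838. Klf4 (ENSMUSG00000003032, chr4:55527143-55532466, minus strand) was at 5.44, 6.16, 5.79, 7.51 and 12.5 CPM in control vehicle 1 to 5 and at 24.6, 7.36, 18.5, 11.9 and 20.0 CPM in MIR vehicle 1 to 5. As for Klf2, MIR vehicle 1, 3 and 5 were high, MIR vehicle 2 and 4 lay within the control range, and control vehicle 5 was the highest control. The log2 fold change of Klf4 was 1.14 ± 0.29, 2.20-fold, with an adjusted p of 0.0838.

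Between MIR and control mice given vehicle, 0 of 9 members were called by edgeR's quasi-likelihood test, where 0.0982% of all genes were called. At an unadjusted p under 0.05, 4 of 9 members were higher, Klf2, Klf3, Klf4 and Klf10, against 7.4% of all genes. DESeq2 and the edgeR likelihood ratio test each called 3 of 9, Klf2, Klf4 and Klf10, and voom called 0, where these tools called 1.04, 1.09 and 0.0924% of all genes as higher. Leaving out control vehicle 5 also gave these 3 calls, with log2 fold changes of 1.18, 1.40 and 1.36 and adjusted p values of 0.0397, 0.0366 and 0.0482 (0.594% of all genes were then called higher), and leaving out MIR vehicle 2 gave 1 call, Klf4 at 1.33 with an adjusted p of 0.0300 (0.348% of all genes). The low control vehicle values of all 3 genes came from the libraries that stood apart. Without control vehicle 1, 2 and 3 the log2 fold changes were 0.61 ± 0.31 for Klf2, 0.71 ± 0.37 for Klf4 and 0.40 ± 0.27 for Klf10, with adjusted p values of 0.760, 0.762 and 0.833. The unadjusted p values of Klf2, Klf3, Klf4 and Klf10 in the quasi-likelihood test were then 0.0659, 0.0832, 0.0679 and 0.158, each over 0.05.

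With rapamycin, Klf2 and Klf4 in MIR mice were near the control levels. Klf2 was at 8.14, 13.8, 8.60, 6.25 and 5.96 CPM in MIR rapamycin 1 to 5, and Klf4 was at 7.90, 12.6, 6.59, 6.20 and 7.35 CPM. MIR rapamycin 2 was highest for both and lay within the range of MIR vehicle, while the 4 remaining libraries lay below all MIR vehicle libraries for Klf2, and 3 did for Klf4. The rapamycin effect in MIR mice was -0.83 ± 0.26 for Klf2, with an unadjusted p of 0.00393 and an adjusted p of 0.536, and -1.02 ± 0.29 for Klf4, with an unadjusted p of 0.00244 and an adjusted p of 0.444. In this comparison 0 of 9 members were called by edgeR's quasi-likelihood test, DESeq2, the likelihood ratio test or voom. The quasi-likelihood test called 0.0173% of all genes. At an unadjusted p under 0.05 in that test, 3 of 9 members were lower, the third being Klf3, against 2.78% of all genes. Without control vehicle 1, 2 and 3, which enter only through the shared spread, the values of Klf2 and Klf4 were -0.83 and -1.01 with adjusted p values of 0.189 and 0.174.

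In control offspring, Klf2 was at 6.74, 9.68, 9.76, 8.18 and 9.86 CPM and Klf4 at 7.71, 13.1, 9.36, 7.20 and 7.50 CPM in control rapamycin 1 to 5, within or close to the range of control vehicle. The log2 fold changes were 0.23 (95% interval -0.31 to 0.77) and 0.26 (-0.35 to 0.88), and they turned to -0.18 and -0.16 without control vehicle 1, 2 and 3. The interaction was -1.06 ± 0.36 for Klf2 and -1.28 ± 0.42 for Klf4, with unadjusted p values of 0.00826 and 0.00588 and adjusted p values of 0.332 and 0.324. Of the 9 members, 5 had a negative interaction at an unadjusted p under 0.05, Klf2, Klf4, Klf9, Klf10 and Klf13, against 6.58% of all genes, and 0 were called by any tool, where 0% of all genes were called by the quasi-likelihood test. Without control vehicle 1, 2 and 3, Klf2 and Klf4 had interactions of -0.65 and -0.85 with adjusted p values of 0.712 and 0.692. Their unadjusted p values in the quasi-likelihood test were then 0.107 and 0.0789. Those of Klf9, Klf10 and Klf13 were 0.123, 0.205 and 0.155, so each of the 5 was over 0.05. The comparisons of MIR with control under vehicle and of rapamycin with vehicle in MIR share the MIR vehicle libraries, so that high values there enter both with opposite signs.

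**Figure D2:**
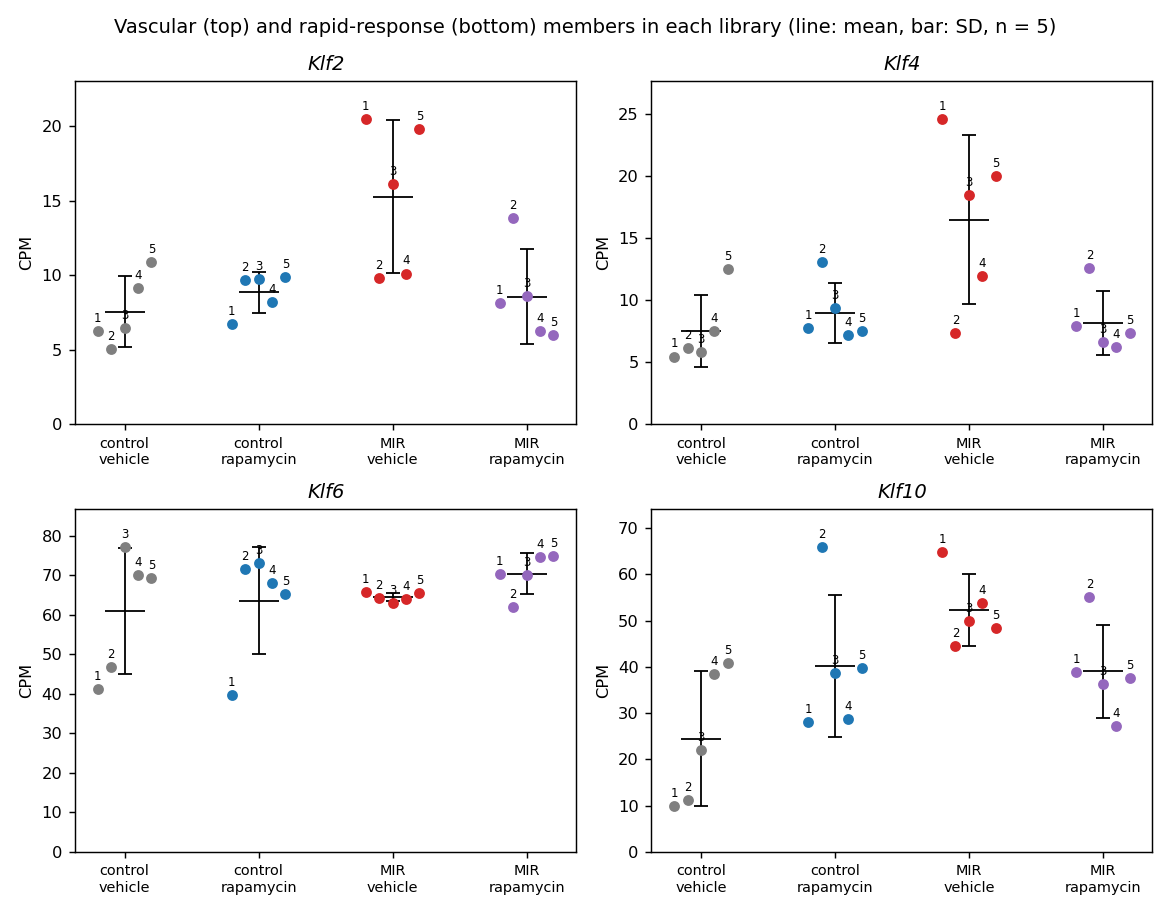
CPM (vertical axes, from 0) of Klf2, Klf4, Klf6 and Klf10 in each library of the 4 groups, where numbers are library numbers, lines are means and bars are SD (n = 5). MIR vehicle 1, 3 and 5 lie at 16.1 CPM or higher for Klf2 and Klf4, and control vehicle 1, 2 and 3 hold the lowest Klf10 values of all 20 libraries.

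Klf2 and Klf4 followed each other from library to library. The Pearson correlation of their log2 CPM over 20 libraries was 0.91, 0.83 after the group means were removed and 0.90 without control vehicle 1, 2 and 3. Among 13275 genes, those whose levels were most like Klf2 were Apold1 (0.93), an early response gene of endothelial cells, Klf4 (0.91) and Fam46a (0.88). Those most like Klf4 were Ptpn1 (0.92), a protein tyrosine phosphatase, Apold1 (0.92) and Klf2. These correlations describe libraries that share group, dissection and depth, and they are given with no test.

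**Figure D3:**
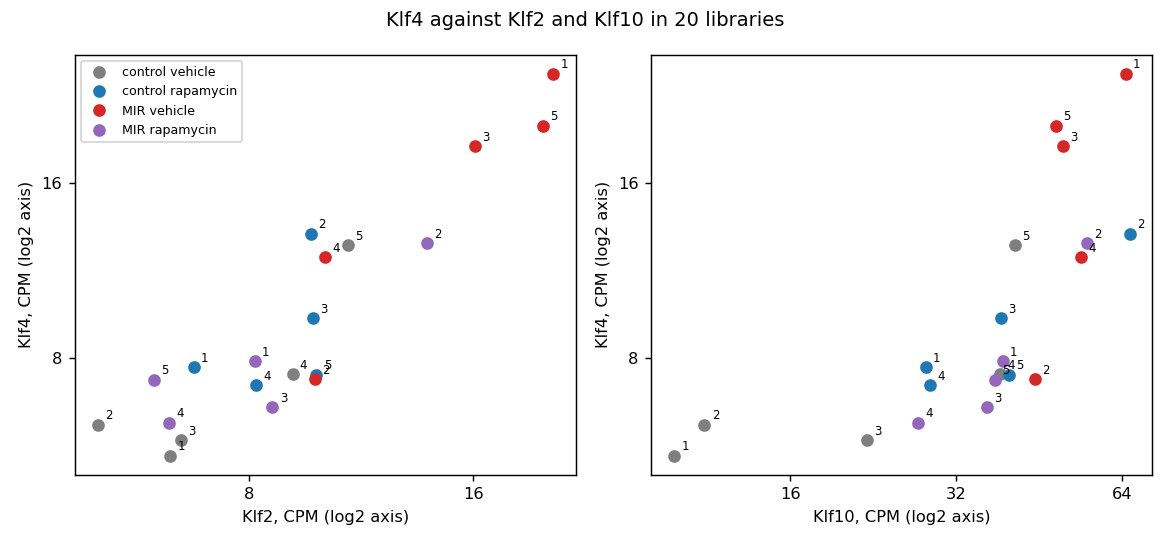
Klf4 against Klf2 (left) and against Klf10 (right) in CPM on log2 axes, each point 1 of 20 libraries, coloured by group with its library number. MIR vehicle 1, 3 and 5 sit at the top right of the left panel, and control vehicle 1 and 2 at the far left of the right panel.

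The markers that could move with the vascular members were read over whole lists. The score of a list in a library was its genes' mean log2 CPM, less the median of that mean across the 20 libraries. The 14 endothelial markers, among them Pecam1, Cdh5 and Kdr, summed to 363 to 465 CPM in control vehicle, 408 to 448 in control rapamycin, 459 to 560 in MIR vehicle and 400 to 549 in MIR rapamycin. Their score ran from 0.11 to 0.42 in MIR vehicle and from -0.27 to 0.076 in control vehicle, without overlap, with a median log2 fold change of 0.35, 0 of 14 called and 9 of 14 higher at an unadjusted p under 0.05, against 7.4% of all genes. With rapamycin in MIR mice, 6 of 14 were lower at that p, against 2.78% of all genes, with a median of -0.19. The 18 immediate early genes, such as Fos and Egr1, had scores from -0.31 to 1.31 in MIR vehicle, with MIR vehicle 2 lowest as for Klf2 and Klf4, and from -0.39 to 0.17 in MIR rapamycin. Their scores were -1.60 and -1.53 in control vehicle 1 and 2. The median log2 fold change of these 18 genes was 0.95 between MIR and control under vehicle and -0.87 with rapamycin in MIR mice, with 0 called in either. The 8 mural cell markers, of pericytes and smooth muscle, summed to 156 to 222 CPM in control vehicle, 159 to 174 in control rapamycin, 189 to 230 in MIR vehicle and 142 to 180 in MIR rapamycin. Their score ran from 0.11 to 0.46 in MIR vehicle and from -0.43 to -0.023 in MIR rapamycin, without overlap, with a median log2 fold change of -0.37. In that comparison 0 of 8 were called, and 5 of 8 were lower at an unadjusted p under 0.05, against 2.78% of all genes. The 8 microglial markers summed to 270 to 470 CPM in control vehicle, 255 to 344 in control rapamycin, 336 to 588 in MIR vehicle and 315 to 455 in MIR rapamycin. Between MIR and control under vehicle, their median log2 fold change was 0.41 and their scores overlapped. There, 0 of 8 were called, and 3 of 8 were higher at an unadjusted p under 0.05, against 7.4% of all genes. Every gene of these 4 lists was detected and tested. The comparisons with control vehicle include control vehicle 1, 2 and 3, which stood apart, and no values without them are given for these lists. The list values stand beside those of Klf2 and Klf4, and the part of each marker list in them was not tested.

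Known targets of Klf2 and Klf4 in endothelial cells formed a list of 7 genes, all tested. Between MIR and control mice given vehicle, 1 of 7 rose, with a median log2 fold change of 0.51 over the list and -0.018 over all genes. At an unadjusted p under 0.05, 4 of 7 were higher, Nos3, Thbd, Tek (0.57) and Cldn5 (0.61), against 7.4% of all genes. Of the 14 endothelial markers described above, 9 were higher at that p in this comparison, with a median of 0.35. Higher values were thus not particular to the targets of Klf2 and Klf4. At that p, 1 of 7 was lower, Nqo1 (-0.64), a quinone reductase, with an adjusted p of 0.191. The gene that rose, against 0.0693% of all genes, was Nos3, the endothelial nitric oxide synthase, which went from 6.90 ± 0.647 CPM in controls to 12.3 ± 2.83 CPM in MIR mice (SD, n = 5), a log2 fold change of 0.83 ± 0.14 with an adjusted p of 0.0457. The call of Nos3 was lost, with adjusted p values from 0.0516 to 0.138, when any 1 of control rapamycin 2, 3, 4 or 5, control vehicle 3, MIR rapamycin 2 or MIR vehicle 1, 3, 4 or 5 was left out, and it was 0.383 without control vehicle 1, 2 and 3, where the fold change was 0.85. Thbd, thrombomodulin, had a log2 fold change of 0.51 with an adjusted p of 0.236. For Thbd, Tek, Cldn5 and Nqo1, no values without control vehicle 1, 2 and 3 are given in this comparison. In control offspring given rapamycin, 1 of 7 fell, against 3.71% of all genes. It was Tek, the angiopoietin receptor, which fell from 13.7 ± 1.77 to 8.55 ± 1.12 CPM, a log2 fold change of -0.68 with an adjusted p of 0.00728. Tek stood at -0.67 without control vehicle 1, 2 and 3 with an adjusted p of 0.0735. Klf2 and Klf4 were not called in that comparison.

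Klf10, induced early by transforming growth factor beta, had the largest coefficient of variation of the members in control vehicle, 59.9%. Klf10 (ENSMUSG00000037465, chr15:38291463-38300706, minus strand) was at 9.84, 11.2, 22.1, 38.4 and 40.9 CPM in control vehicle 1 to 5 and at 64.9, 44.5, 50.0, 53.8 and 48.5 CPM in MIR vehicle 1 to 5. All MIR vehicle libraries lay above all control vehicle libraries, but control vehicle 4 and 5 lay close to them and control vehicle 1, 2 and 3 far below. Klf10 had a log2 fold change of 1.10 ± 0.33, 2.14-fold, with an adjusted p of 0.115. Klf10 and Klf3 were the 2 of 9 members whose MIR vehicle libraries all lay above control vehicle, against 1.61% of all genes. The Klf10 value was 0.40 without control vehicle 1, 2 and 3.

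In control offspring given rapamycin, Klf10 was at 28.2, 66.0, 38.6, 28.7 and 39.8 CPM, which overlapped control vehicle 4 and 5. This gave a log2 fold change of 0.72 ± 0.33 with an adjusted p of 0.163, and it was 0.020 without control vehicle 1, 2 and 3. In MIR rapamycin 1 to 5 it was at 38.8, 55.1, 36.4, 27.3 and 37.5 CPM, with 4 of 5 libraries below all MIR vehicle libraries and a log2 fold change of -0.42 ± 0.32 (adjusted p of 1.00). The interaction of -1.14 ± 0.46 had an unadjusted p of 0.0223 and an adjusted p of 0.349, and without those 3 libraries it was -0.44. The genes most like Klf10 over the 20 libraries were Dusp6 (0.96), a phosphatase that limits ERK signalling, Arc (0.93), a synaptic early response gene, and Trib1 (0.90). These correlations were 0.83, 0.77 and 0.71 without control vehicle 1, 2 and 3. Klf10 correlated with Klf4 at 0.72 and with Klf2 at 0.74.

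Klf6, a factor linked to injury responses and to axon regrowth, varied little across the MIR libraries. In MIR vehicle 1 to 5 it was at 65.8, 64.2, 63.0, 63.9 and 65.4 CPM, an SD of 1.13 CPM and the smallest coefficient of variation of any member in any group, 1.75%. That value was the lowest of 36, came from 1137 to 1390 reads per library and was not tested. In MIR rapamycin 1 to 5 Klf6 was at 70.2, 61.9, 70.1, 74.6 and 74.7 CPM. The control groups were wider, at 41.2, 46.8, 77.2, 70.1 and 69.2 CPM in control vehicle 1 to 5 and at 39.8, 71.6, 73.0, 68.0 and 65.3 CPM in control rapamycin 1 to 5. Control vehicle 1 and 2 and control rapamycin 1 were the 3 lowest of the 20 libraries. Klf6 (ENSMUSG00000000078, chr13:5861482-5870394, plus strand) had log2 fold changes of 0.082 (95% interval -0.25 to 0.41) between MIR and control under vehicle, 0.062 (-0.27 to 0.39) for rapamycin in controls and 0.13 (-0.20 to 0.46) for rapamycin in MIR. The first of these turned to -0.11 and the second to -0.14 without control vehicle 1, 2 and 3. The genes most like Klf6 were Pdcd4 (0.94), a translation inhibitor, Fam188a (0.94) and Krr1 (0.92).

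Klf3, a repressor that recruits the corepressor CtBP, was at 32.8, 33.0, 31.1, 30.8 and 34.3 CPM in control vehicle 1 to 5 and at 49.8, 35.9, 34.3, 36.9 and 39.2 CPM in MIR vehicle 1 to 5. The groups did not overlap, although MIR vehicle 3 and control vehicle 5 nearly met and MIR vehicle 1 stood highest. Klf3 had a log2 fold change of 0.28 ± 0.10 with an adjusted p of 0.197, and without control vehicle 1, 2 and 3 it was 0.27 with an adjusted p of 0.784. With rapamycin, Klf3 was at 36.5, 32.7, 34.6, 28.5 and 32.9 CPM in MIR mice and at 30.2, 36.9, 25.4, 30.0 and 32.4 CPM in controls, overlapping the vehicle groups. The genes most like Klf3 were the endothelial genes Sox18 (0.86) and Kdr (0.81), and Elk3 (0.81), an ETS factor. C230096K16Rik overlaps Klf3 (ENSMUSG00000029178, chr5:64803388-64832901, plus strand) on the same strand and Gm20033 on the other, so that reads could be shared.

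Klf7, known from sensory and cortical neurons for its part in axon outgrowth, was at 59.4, 84.0, 75.1, 82.4 and 85.9 CPM in control vehicle 1 to 5 and at 77.3, 78.8, 73.8, 77.5 and 66.4 CPM in MIR vehicle 1 to 5. Control vehicle 1 was the lowest of the 20 libraries. With rapamycin it was at 69.1, 89.3, 81.3, 86.4 and 80.1 CPM in controls and at 66.2, 77.6, 72.2, 73.5 and 75.8 CPM in MIR mice. Klf7 (ENSMUSG00000025959, chr1:64029447-64122282, minus strand) had log2 fold changes from -0.15 to 0.070 in the 4 comparisons, with the 95% intervals together spanning -0.35 to 0.26. The rapamycin effect in controls turned from 0.070 to -0.055 without control vehicle 1, 2 and 3. Gm13748 and Gm26649 overlap Klf7 on the other strand, and Mir6899 lies within it.

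**Figure D4:**
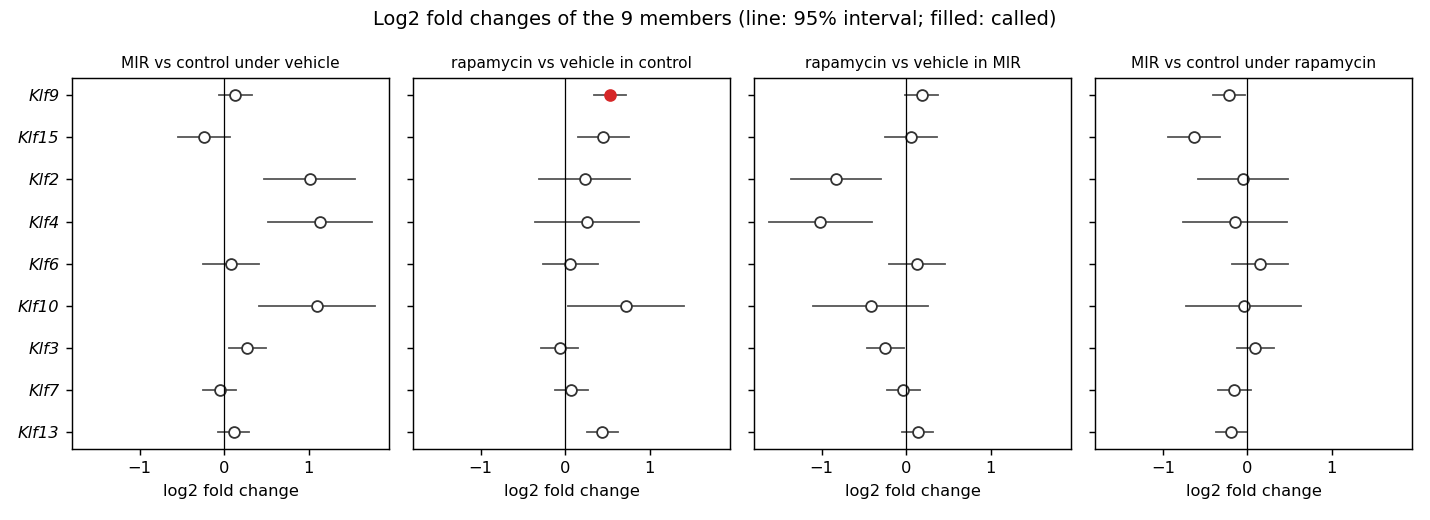
Log2 fold changes (horizontal axis) of the 9 members in 4 comparisons with 95% intervals as lines, ordered by role from Klf9 at the top to Klf13 at the bottom. The filled point, Klf9 at 0.53 with rapamycin in controls, is the 1 value called.

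Between MIR and control mice given rapamycin, 0 of 9 members were called by edgeR's quasi-likelihood test, where 0% of all genes were called, and 1 of 9, Klf15, by DESeq2, the likelihood ratio test and voom, which called 0.0589, 0.0347 and 0.0982% of all genes as lower. At an unadjusted p under 0.05, 3 of 9 were lower in MIR mice, Klf9 (-0.21), Klf13 (-0.19) and Klf15 (-0.63), against 4.33% of all genes. These 3 were also higher with rapamycin in controls, and the 2 comparisons share the control rapamycin libraries. They were not the only ones, as Klf10 had a log2 fold change of 0.72 there. For the average rapamycin effect 0 of 9 were called, where 1.42% of all genes were called. There, 4 of 9 had an unadjusted p under 0.05 against 19% of all genes, namely Klf9, Klf13, Klf15 (0.25, adjusted p of 0.187) and, lower, Klf3 (-0.16, adjusted p of 0.260). DESeq2, the likelihood ratio test and voom also called 0 of 9 for the average effect.

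The steroid-induced and vascular members were also set against each other within each library, as the mean log2 CPM of Klf9 and Klf15 minus that of Klf2 and Klf4. The difference had a median of 3.46 (2.74 to 3.66) in control vehicle, 3.57 (2.89 to 3.82) in control rapamycin, 2.04 (1.60 to 2.83) in MIR vehicle and 3.28 (2.48 to 3.57) in MIR rapamycin. MIR vehicle was lowest, and it overlapped control vehicle through MIR vehicle 2 and MIR rapamycin through MIR vehicle 2 and 4. Against Klf6 and Klf10, the median was 0.73 (0.37 to 1.89) in control vehicle, 1.11 (0.29 to 1.31) in control rapamycin, 0.20 (0.064 to 0.40) in MIR vehicle and 0.50 (0.35 to 0.73) in MIR rapamycin. Control vehicle 1 and 2 were the highest of all for this measure. The scale is a difference of log2 levels within a library, and it is given as a description, with no test.

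**Figure D5:**
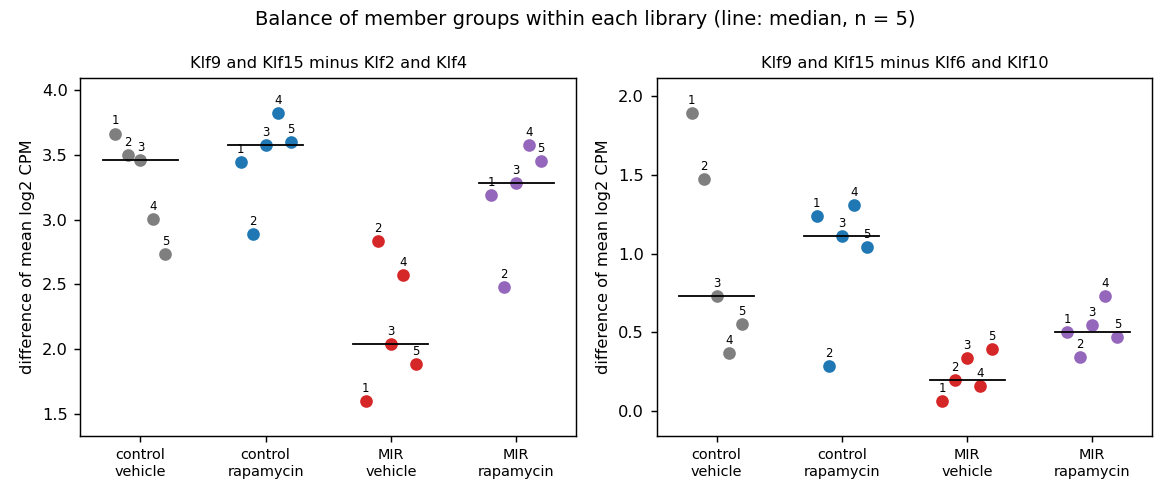
Difference of mean log2 CPM (vertical axis) between Klf9 with Klf15 and Klf2 with Klf4 (left) or Klf6 with Klf10 (right), for each library with its number, and lines at the median (n = 5). MIR vehicle has the lowest median in both panels, at 2.04 and 0.20.

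Klf9 and Klf13 correlated at 0.78 over the 20 libraries and at 0.29 once group means were removed, and Klf13 and Klf15 at 0.59, or 0.81 without control vehicle 1, 2 and 3. The genes most like Klf9 were Ism1 (0.87), Hacd2 (0.87) and Brap (0.85), those most like Klf13 were Islr2 (0.92), Ipo5 (0.91), an importin, and Acot4 (0.91), and those most like Klf15 were Slc25a34 (0.81), Nfkbia (0.80), an inhibitor of NF-kappa-B and a glucocorticoid target, and Kyat3 (0.80).

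Of the other 8 Klf genes, 6 were tested and 1 was called in 1 comparison, in which 1.52% of all genes rose. Klf14, a near relative of Klf16, rose with rapamycin in controls, from 0.264 ± 0.0995 to 0.677 ± 0.185 CPM (SD, n = 5), a log2 fold change of 1.34 ± 0.35 with an adjusted p of 0.0287. It had 231 reads in all 20 libraries, 22 at most in 1 library. Without control vehicle 1, 2 and 3 the Klf14 value was 1.20 with an adjusted p of 0.299, and the call was also lost without control rapamycin 1 (1.31, adjusted p of 0.0503), control rapamycin 2 (1.20, 0.0544) or control vehicle 2 (1.23, 0.0639), with no filter on low counts (0.0503), by voom (0.0651) and with the library number as a block (0.0531). Klf16 had a log2 fold change of -0.43 with rapamycin in MIR mice and an adjusted p of 0.847. Of the 9 Sp genes, which carry the same kind of zinc fingers, 8 were tested and 0 were called in any comparison, with a median log2 fold change of -0.46 for rapamycin in controls.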

How the data were processed

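According to the labels and the methods of the study, the authors isolated RNA from brain, prepared stranded mRNA libraries, aligned reads with STAR 2.4.0 to mm10 and deposited raw read counts per gene from HTSeq 0.6.1. The methods name RefSeq genes, while the identifiers are Ensembl's. Libraries were removed at quality control by the authors, and the labels give no batch. No source used here says whether counting used strand.

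Counts were analysed with edgeR 4.0.16 in R 4.3.3. Genes were kept by filterByExpr (minimum count 10, minimum total 15), scaled by TMM and fitted over all 20 libraries with 4 group means, a shared spread (common biological coefficient of variation 21.9%) and the quasi-likelihood test, with Benjamini-Hochberg adjustment over all 17313 genes. Standard errors were taken as the log2 fold change over the square root of F. Called means an adjusted p under 0.05 and an absolute log2 fold change over 0.5. Values printed as CPM use TMM-scaled totals, and log2 CPM a prior count of 2. Library totals between 17846282 and 24460104 counted reads limit the precision of the low genes. The steps were tested on simulated data. Alternatives used DESeq2 1.42.0, the likelihood ratio test, limma 3.58.1 voom, other scalings, filters, thresholds and left-out libraries. No 2 libraries of a group agreed within sampling noise.

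All members are described, list genes are named when called, when they define a list or when among the 3 smallest p values of a list, and 3 most alike genes per member are given among those of mean CPM of at least 1, except for Klf7, for which they are not reported here. The members and lists were chosen with earlier results of these data known. Gene positions and exon lengths are from GENCODE M21 (mm10), in which 48435 of 48795 identifiers were found, and promoter sequences from RefSeq on GRCm38.p6, which uses its own gene starts. Klf10 has no promoter shown.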

Additional observations from a re-analysis of the deposited data

Results flagged for a closer look

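In 36 groups of 5 libraries (9 members in 4 groups), 3 held a library whose gap to the nearest other was, as a share of the group's range, over Dixon's 95% critical value, and chance alone flags about 1 in 20 groups. Klf4 was at 12.6 CPM in MIR rapamycin 2, the highest of its group, with the others between 6.20 and 7.90 CPM. Klf13 was at 261 CPM in the same library, again the highest, with the others between 227 and 234 CPM. Klf6 was at 39.8 CPM in control rapamycin 1, the lowest of its group, with the others between 65.3 and 73.0 CPM. Control rapamycin 1 was also the shallowest library of its group, at 18062815 counted reads, and it differed from the other 4 with a chi-square per degree of freedom of 73.3 to 82.5, against 11.5 to 26.3 among them. Whether these go with its Klf6 value was not tested.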

How the results depend on the processing

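DESeq2-type size factors, no filter, a filter at 1 CPM and robust estimation kept every member's direction and call in the 6 comparisons. Library numbers did not pair the libraries: the correlation of deviations ran from -0.15 to 0.20 over 30 same-numbered pairs, 4 were over 0.1, and in 6 of 30 the same number was the best match among 5 candidates, as many as random matching gives. With the replicate block, the number of members called stayed at 1 for rapamycin in controls and 0 in the other 5 comparisons, and no member's call changed.

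Between MIR and control under vehicle (0 called), 3 were called by DESeq2 and by the likelihood ratio test, 2 at an adjusted p under 0.1 with a log2 fold change over 1, and 0 to 3 with 1 library left out. For rapamycin in controls (1 called), 2 were called by voom and with no minimum fold change, 0 with library totals only (Klf9 at 0.45), on the control groups alone, at an adjusted p under 0.1 with a log2 fold change over 1, without control vehicle 1, 2 and 3, and, chosen after seeing the data, without these and control rapamycin 1, and 0 to 2 with 1 library left out. Between MIR and control under rapamycin (0 called), 1 was called by DESeq2, the likelihood ratio test, voom and without those 4 libraries. For the average effect (0 called), 2 were called with no minimum fold change. Several of these counts stand without the share of all genes called under the same setting. They describe how the calls moved with the setting and are no result about the members. Causes were not tested.

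Directions turned only for values that were not called. With voom, Klf6 was -0.11 (MIR under vehicle) and -0.029 (rapamycin in controls) and Klf10 -0.076 (average). With library totals, rapamycin in controls gave -0.012 for Klf6 and -0.012 for Klf7, MIR under rapamycin gave 0.0091 for Klf2 and 0.016 for Klf10, and the average for Klf7 was -0.015. Without control vehicle 1, 2 and 3, Klf6 was -0.11 (MIR under vehicle), rapamycin in controls gave -0.18 for Klf2, -0.16 for Klf4, -0.14 for Klf6 and -0.055 for Klf7, the interaction of Klf7 was 0.024, and averages were -0.0037 for Klf6, -0.043 for Klf7 and -0.20 for Klf10. Without control rapamycin 1 as well, Klf6 was -0.11 (MIR under vehicle), rapamycin in controls gave -0.096 for Klf2, -0.11 for Klf4 and -0.0057 for Klf6, and averages were -0.015 for Klf7 and -0.15 for Klf10. With 1 library left out, ranges that crossed 0 were -0.030 to 0.18 for Klf6 (MIR under vehicle), -0.13 to 0.0028 for Klf3, -0.049 to 0.19 for Klf6 and -0.010 to 0.12 for Klf7 (rapamycin in controls), -0.073 to 0.00079 for Klf7 and -0.018 to 0.093 for Klf15 (rapamycin in MIR), -0.29 to 0.057 for Klf2, -0.36 to 0.032 for Klf4 and -0.20 to 0.21 for Klf10 (MIR under rapamycin), -0.066 to 0.17 for Klf6 (interaction) and -0.022 to 0.046 for Klf7 (average).

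Klf2 and Klf4 had the fewest reads of the 9 members, 4272 and 4342 over all libraries. Between MIR and control under vehicle their SE was 0.26 and 0.29, and that of Klf10, with 16619 reads, was 0.33. The part of depth in these errors was not tested.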
